A study of Mus musculus with 40 samples.

Results

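Imprinted genes are expressed mainly from the copy inherited from 1 parent, through methylation marks laid down in the germ line, and many of them act on growth, on stem cell maintenance and on adipose tissue. Described here are 10 mouse imprinted genes outside the Dlk1-Meg3 cluster. With earlier results of these data known, they were chosen by symbol from the count table of the series. They are Igf2, H19, Cdkn1c, Grb10, Plagl1, Mest, Peg3, Peg10, Sgce and Asb4, and all 10 were found among the 29912 gene symbols shared by the files of both stages. The study asked whether brown adipose tissue of C57BL/6 mice holds distinct adipocyte lineages. For this, 20 immortalised cell lines, labelled with the letters A to D and a number, were sequenced at 2 stages, which gave 40 libraries. In the differentiated stage (n = 20) a line had been exposed to IBMX, dexamethasone, indomethacin, T3 and insulin and kept for 8 days with T3 and insulin. In the undifferentiated stage (n = 20) the same line was grown without induction, at passage 6 to 12 in both stages. The labels do not say what the letters stand for, whether a line is 1 clone or how many animals gave rise to the lines, so the p-values measure the spread between these lines only. The libraries are of a single inbred strain and the counts are not split by allele, so nothing here says which parental copy was read.

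The 10 genes have well known roles. Igf2 encodes a growth factor that signals through the IGF1 and insulin receptors, and H19, its neighbour on chromosome 7, is a long noncoding RNA that is read from the maternal copy while Igf2 is read from the paternal one. Plagl1 (Zac1) on chromosome 10 is a zinc finger transcription factor reported in mice to act on other imprinted genes, Igf2, H19 and Cdkn1c among them. Cdkn1c on chromosome 7 encodes p57, an inhibitor of cyclin-dependent kinases, and Grb10 on chromosome 11 encodes an adaptor that dampens insulin and IGF1 receptor signalling. Mest (Peg1) on chromosome 6 encodes a protein of the hydrolase fold family that is linked to fat mass expansion in mice, and Peg3 on chromosome 7 encodes a zinc finger protein. Peg10, a gene derived from a retrotransposon, Sgce, which encodes epsilon-sarcoglycan, and Asb4, a substrate receptor of a ubiquitin ligase, lie near each other on chromosome 6. Peg10, Sgce, Igf2, Plagl1, Mest and Peg3 are known as paternally expressed in mice, and H19, Cdkn1c, Asb4 and, in most tissues, Grb10 as maternally expressed.

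Promoter sequences differ widely among these genes in CpG content, the substrate of the methylation marks. RefSeq promoter entries of build GRCm38.p6, which run from 250 bases before to 50 bases after a start site, were found for 6 of the 10 genes (Asb4, Grb10, Igf2, Mest, Peg3 and Plagl1). A single entry is shown for each of 3 genes, chosen after their levels were seen. Asb4 was on in some lines only, Grb10 ranged widely between lines and Mest rose by very unequal amounts. Where a gene has more than 1 entry, other entries can differ in CpG. They are printed 5′ to 3′ on the strand of the gene, with CpG dinucleotides in capitals.
Asb4, chr6:5383136-5383435, plus strand, 6 CpG: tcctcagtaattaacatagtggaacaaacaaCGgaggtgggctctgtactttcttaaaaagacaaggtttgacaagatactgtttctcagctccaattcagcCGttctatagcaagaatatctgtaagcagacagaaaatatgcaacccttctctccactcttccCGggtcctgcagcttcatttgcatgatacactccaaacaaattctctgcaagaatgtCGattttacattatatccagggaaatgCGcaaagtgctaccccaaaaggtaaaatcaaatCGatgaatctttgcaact
Grb10, chr11:12037371-12037670, minus strand, 45 CpG: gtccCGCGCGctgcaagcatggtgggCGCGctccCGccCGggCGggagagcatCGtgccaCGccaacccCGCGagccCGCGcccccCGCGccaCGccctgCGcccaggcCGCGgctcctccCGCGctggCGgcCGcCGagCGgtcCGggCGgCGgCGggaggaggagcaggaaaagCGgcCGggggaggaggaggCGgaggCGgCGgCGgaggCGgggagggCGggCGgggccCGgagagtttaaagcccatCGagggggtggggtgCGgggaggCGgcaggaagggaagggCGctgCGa
Mest, chr6:30737800-30738099, plus strand, 17 CpG: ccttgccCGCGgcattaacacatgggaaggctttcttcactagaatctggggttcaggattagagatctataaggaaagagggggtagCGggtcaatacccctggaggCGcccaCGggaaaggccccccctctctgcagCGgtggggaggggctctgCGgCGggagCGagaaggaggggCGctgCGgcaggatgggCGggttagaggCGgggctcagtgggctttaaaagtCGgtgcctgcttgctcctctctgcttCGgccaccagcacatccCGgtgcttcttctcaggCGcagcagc
The 32851 promoter entries of the table held a median of 7 CpG, so the Asb4 entry shown lay near that median, the Mest entry shown lay above it, and the Grb10 entry shown had more CpG than 98.1% of all entries. The other Grb10 entry holds 9 CpG, the other Asb4 entry 8 CpG, and of the further Mest entries 1 holds 8 CpG and 1 overlaps the sequence shown, so the choice of start site decides these counts. The hexamer TGCCGC, the core of the motif bound by the imprinting factor ZFP57 when methylated, was searched on both strands and stood in 5 of the 13 entries of the 6 genes, against 11.6% of all entries. Of these 5 entries, 2 are overlapping Mest windows that hold the same matches. The hexamer itself contains a CpG, and the 5 entries held 14 to 45 CpG, above the median of 7. The share was not compared with entries of like CpG content. It was found in the Grb10 and Mest sequences printed here and not in that of Asb4. A match describes the letters of the window and is not a bound site.

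Levels are given as CPM, counts scaled to a common depth by the TMM method, and a gene was called on in a library at 1 CPM or more. In the differentiated stage 6 of the 10 genes were on in all 20 lines (Cdkn1c, Grb10, Plagl1, Mest, Peg10 and Sgce) and 4 were on in some lines only, namely Igf2 and Peg3 in 19 lines each, Asb4 in 8 and H19 in 5. In the undifferentiated stage 5 were on in all 20 lines (Plagl1, Mest, Peg3, Peg10 and Sgce), Grb10 was on in 17, Cdkn1c in 10, Asb4 in 9 and Igf2 in 4, and H19 was off in all 20. For comparison, of the 14081 genes tested, 79.2% were on in all lines and 16.9% in some lines in the differentiated stage, and 77.0% and 16.2% in the undifferentiated stage. The cut bears on these classes: at 0.5 CPM Igf2 was on in all 20 differentiated and Grb10 in all 20 undifferentiated libraries, and at 5 CPM Igf2 and Peg3 were each on in 11 differentiated libraries and Mest in 7 undifferentiated ones.

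**Figure D1:**
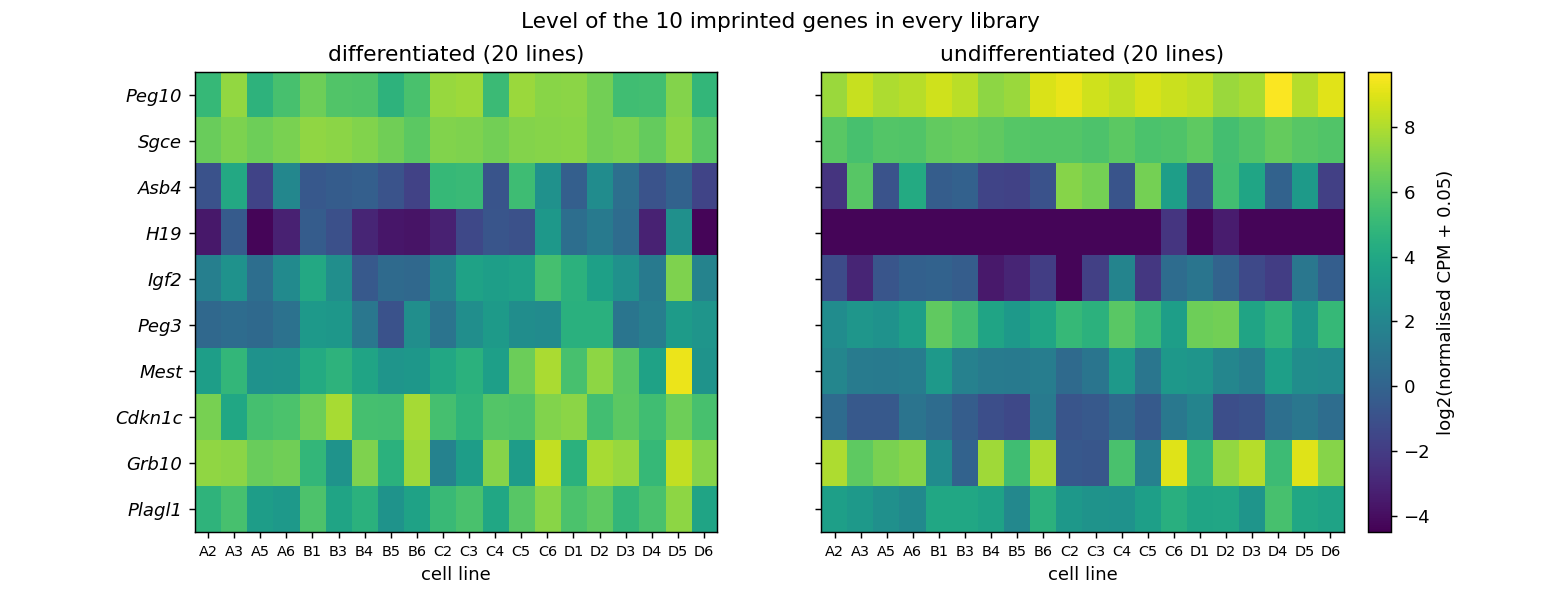
Level of the 10 genes in each of the 40 libraries, differentiated left and undifferentiated right, with a column per cell line and colour giving log2(CPM + 0.05). Peg10 and Sgce are high in every column, H19 is dark in all undifferentiated columns, and Asb4 and Grb10 vary widely in colour from line to line at both stages.

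Most of these genes differed between the stages, in both directions. The files of the stages were also counted in different ways, as described below, so stage and counting cannot be told apart. Where a gene is said to rise or fall, this describes the difference between the stages. The stage difference was tested with edgeR (quasi-likelihood F, adjusted after Benjamini and Hochberg) over all 14081 genes that passed a filter on low counts, at a threshold of 0.05. Of the 10 genes, 9 passed the filter, of which 5 were higher in differentiated libraries (Cdkn1c, Igf2, Mest, Plagl1 and Sgce), 3 were lower (Peg3, Peg10 and Asb4) and Grb10 was not called. Of all tested genes, 43.6% were called higher and 38.4% lower, so a call as such does not set these genes apart. The median log2 fold change was 0.88 over the 9 genes and 0.06 over all tested genes. H19 failed the filter and was tested in a fit without it. These are bulk libraries, in which fewer cells that express a gene and less RNA per cell cannot be told apart.

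Cdkn1c, the cell cycle inhibitor, had the largest change of the 9 filtered genes. Its level ran from 15.6 through a median of 52.5 to 232 CPM in differentiated lines, against 0.331, 0.988 and 3.65 CPM in undifferentiated lines. Line B3 was highest and A3 lowest after differentiation, D1 was highest and B5 lowest before it, and the stages did not overlap. How many of all tested genes also lack overlap was not counted. The mean was 81.0 ± 60.3 CPM in differentiated and 1.24 ± 0.880 CPM in undifferentiated libraries (SD, n = 20 each), and the log2 fold change was 6.03 (SE 0.36, edgeR adjusted p = 1.15e-18, higher in 20 of 20 lines). Within lines the ratio of the stages ran from 24.6 in A3 to 302 in B3. An antisense gene, Gm44732, overlaps 30.7% of the exon bases of Cdkn1c, and since the strand setting of the counting is not given in the sources used here, its reads may be counted with those of Cdkn1c. The summed level of 4 proliferation markers (Mki67, Top2a, Bub1 and Ccnb1) ran from 431 to 1388 CPM in differentiated and from 1309 to 1713 CPM in undifferentiated libraries, and its part in the Cdkn1c result was not tested.

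Igf2, the growth factor, was higher after differentiation in every line. It ran from 0.633 through 6.01 to 126 CPM in differentiated lines, against 0, 0.451 and 3.74 CPM in undifferentiated lines. Line D5 stood at the top after differentiation, with C6 next at 45.2 CPM and D1 at 24.3 CPM, and the lowest differentiated lines overlapped the highest undifferentiated ones. The log2 fold change was 4.25 (SE 0.63, edgeR adjusted p = 8.15e-08, higher in 20 of 20 lines), and it was 3.37 without C6 and D5 (adjusted p = 4.29e-07). Only 377 reads were counted over all 20 undifferentiated libraries, so the ratio within a line is loosely fixed: among 16 lines with more than 3 counts at both stages it ran from 2.75 in A5 to 74.5 in C5. The readthrough gene Gm49394 on the same strand and Igf2os on the opposite strand overlap 64.6% of the exon bases of Igf2, so part of its reads may be counted elsewhere or come from these genes.

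H19, the noncoding neighbour of Igf2, was nearly silent before differentiation and remained low after it. Differentiated lines had between 0 and 8.21 CPM with a median of 0.379 CPM, against 0 in 18 of 20 undifferentiated lines, 0.156 CPM in C6 (4 counts) and 0.0420 CPM in D2 (1 count). A count of 0 allows up to 3 counts, which is 0.105 to 0.147 CPM in the undifferentiated libraries. After differentiation C6 was highest, D5 followed at 6.14 CPM and D2 at 2.48 CPM, and A5 and D6 were at 0. Over all lines 843 reads were counted in differentiated and 5 in undifferentiated libraries. In C6, with more than 3 counts at both stages, the level was 52.8 times as high after differentiation. In the fit without a filter the log2 fold change was 6.31 (SE 0.89, edgeR adjusted p = 4.23e-08, higher in 18 of 20 lines and equal at 0 in A5 and D6), a size that depends on the prior count of the fit because most undifferentiated libraries were at 0. In that fit 35.7% of 22846 genes were called higher. Among the 18 higher lines, A2, A6, B4, B5, B6, C2 and D4 had 1 or 2 counts after differentiation. A count of 0 before it allows as many.

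Plagl1, the zinc finger factor, moved in the same direction by less. It ran from 6.80 through 32.2 to 158 CPM in differentiated lines, against 4.41, 12.0 and 48.2 CPM in undifferentiated lines. D5 and C6 were highest after differentiation at 158 and 143 CPM, D4 was highest before it, B5 was lowest at both stages, and the stages overlapped. The log2 fold change was 1.70 (SE 0.34, edgeR adjusted p = 2.19e-05, higher in 18 of 20 lines), and the ratio within a line ran from 0.531 in B6 to 10.4 in D5.

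Grb10, the inhibitor of insulin receptor signalling, differed between lines, and a difference between stages was not called. Differentiated lines ran from 3.40 through 111 to 336 CPM, against 0.554, 94.0 and 524 CPM in undifferentiated lines. C6 and D5 were highest at both stages, with 336 and 335 CPM after differentiation and 524 and 508 CPM before it. C3, C2 and B3 were below 1 CPM before differentiation, at 0.554, 0.621 and 0.922 CPM, and reached 10.4, 3.40 and 6.96 CPM after it. C5 and B1 were also low, at 9.95 and 29.9 CPM after differentiation and 3.20 and 5.22 CPM before it. The stages overlapped over nearly their whole range. The log2 fold change was -0.27 (SE 0.60, edgeR adjusted p = 0.680, higher in 8 of 20 lines), and with the line as a replicate block it was 0.36 (adjusted p = 0.257), so neither a direction nor a change was established. The ratio within a line ran from 0.584 in B5 to 18.8 in C3.

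Mest, the hydrolase fold gene, rose in all lines by very unequal amounts. Differentiated lines ran from 6.64 through 17.3 to 625 CPM, against 1.29, 3.16 and 11.4 CPM in undifferentiated lines. D5 stood far above the rest after differentiation, followed by C6 at 238 CPM and D2 at 156 CPM, while A5, A6 and D6 were lowest, below 7 CPM, and the stages overlapped. The log2 fold change of the group means was 3.98 (SE 0.56, edgeR adjusted p = 2.75e-08, higher in 20 of 20 lines), and with the line as a replicate block it was 2.69 (SE 0.44, adjusted p = 7.18e-06). It was 3.24 without D5 (edgeR adjusted p = 5.88e-08) and 2.84 without C6 and D5 (adjusted p = 1.25e-07), so D5 carries a large share of the value. The ratio within a line had a median of 5.87 and ran from 1.13 in D4 to 115 in D5. Copg2 on the opposite strand overlaps 23.1% of the exon bases of Mest and itself rose by a log2 fold change of 2.08, so reads of both may be mixed if the counting ignored the strand.

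Peg3, the zinc finger gene, fell. Differentiated lines ran from 0.472 through 5.28 to 22.9 CPM, against 5.26, 19.6 and 104 CPM in undifferentiated lines. D2 and D1 were highest at both stages, with 22.9 and 22.4 CPM after differentiation and 104 and 95.0 CPM before it, and B5 was the lowest differentiated line. The stages overlapped, and D5 was the single line that was higher after differentiation, by 1.17 times. The log2 fold change was -2.35 (SE 0.44, edgeR adjusted p = 6.99e-06, lower in 19 of 20 lines).

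The neighbours Peg10, Sgce and Asb4 moved in different directions. Peg10 ran from 25.3 through 57.3 to 195 CPM in differentiated lines, against 156, 325 and 792 CPM in undifferentiated lines. It was lower after differentiation in 20 of 20 lines, with a log2 fold change of -1.99 (SE 0.27, edgeR adjusted p = 1.25e-08), although the highest differentiated lines, C3, C5, C2 and A3, overlapped the lowest undifferentiated ones. Sgce, which starts next to Peg10 on the opposite strand, ran from 66.7 through 117 to 164 CPM in differentiated lines, against 43.3, 60.2 and 83.9 CPM in undifferentiated lines. Its log2 fold change was 0.88 (SE 0.10, edgeR adjusted p = 1.09e-10, higher in 19 of 20 lines), and in D4 the ratio of the stages was 0.998. Of the 10 genes Sgce varied least between lines, with an SD of log2 CPM of 0.37 in differentiated and 0.26 in undifferentiated libraries, close to the medians of 0.38 and 0.28 over all tested genes.

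Asb4, the ubiquitin ligase component, was expressed in a subset of lines. Differentiated lines ran from 0.262 through 0.811 to 39.3 CPM, against 0.146, 0.913 and 139 CPM in undifferentiated lines. Before differentiation it was at 9.38 CPM or more in A3, A6, C2, C3, C5, C6, D2, D3 and D5 and below 1 CPM in the other 11 lines, with no line in between. After differentiation C5, C3, C2 and A3 kept 39.3, 34.6, 31.9 and 16.9 CPM, C6, D2, A6 and D3 had 6.42, 5.28, 4.15 and 1.57 CPM, and D5 had 0.923 CPM. The log2 fold change was -1.81 (SE 0.86, edgeR adjusted p = 0.0492, lower in 15 of 20 lines). In this fit, which does not pair the libraries of a line, the call stood at the threshold. It was lost with limma-voom (-0.89, adjusted p = 0.375), without the filter on low counts (edgeR adjusted p = 0.0534) and without C6 and D5 (adjusted p = 0.0638). With the line as a replicate block it held (-1.18, SE 0.31, edgeR adjusted p = 0.00145). In the lines that were on before differentiation, the ratio of the stages ran from 0.0984 in D5 to 0.577 in C6.

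**Figure D2:**
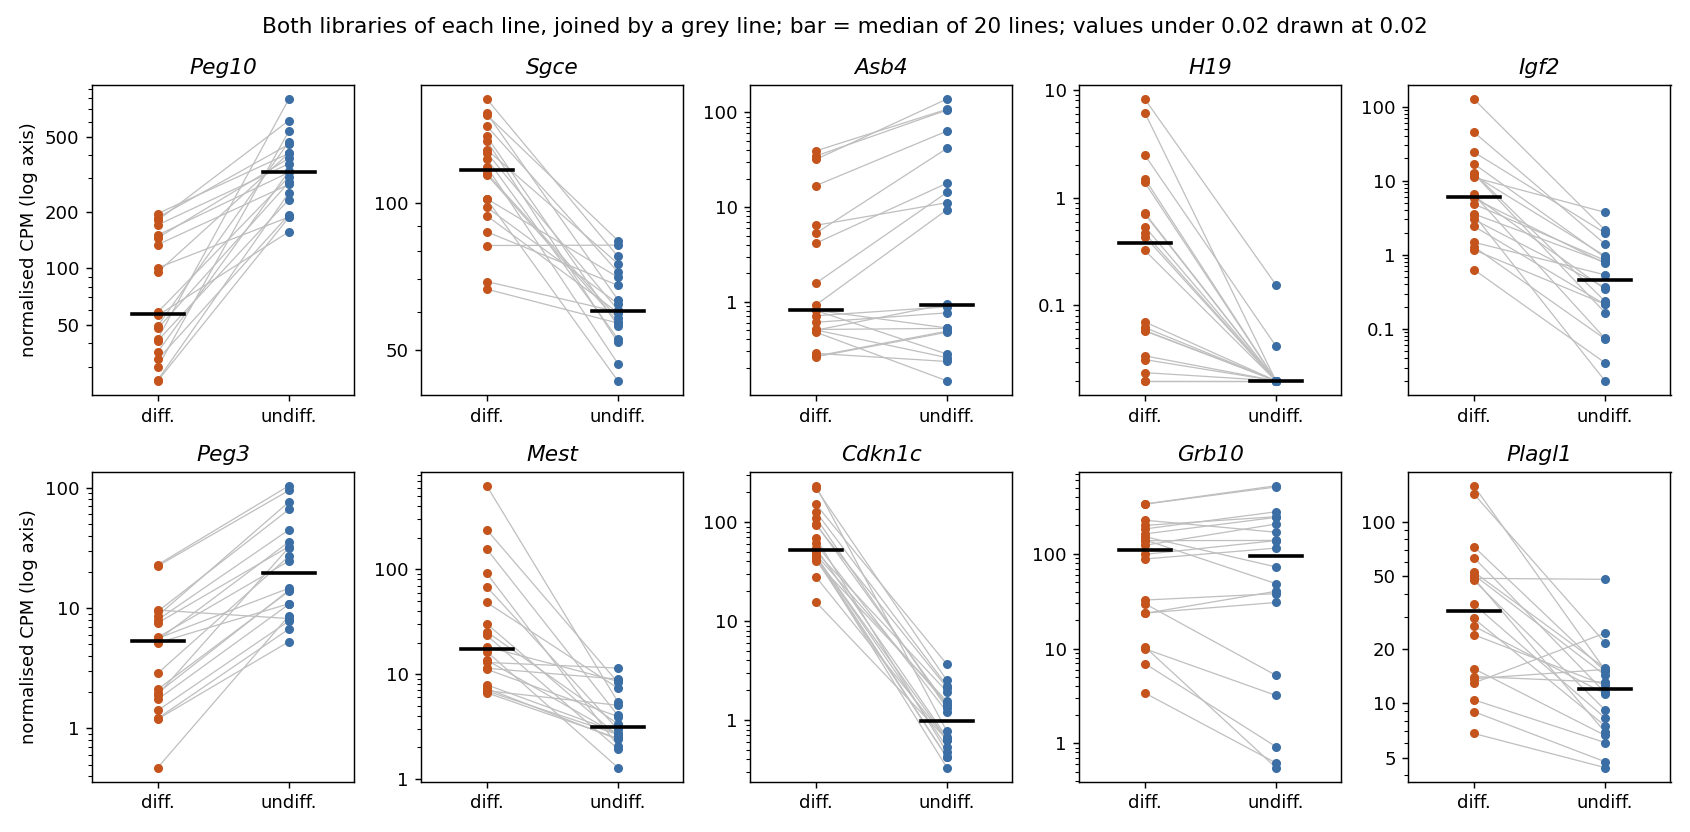
Level of each gene in both libraries of each of the 20 lines, differentiated (orange, left) and undifferentiated (blue, right), in CPM on log axes of different range, with a grey line joining the libraries of a line and a bar at the median of 20 lines. Cdkn1c separates the stages fully, Peg10 falls in every line, the Grb10 lines that are lowest before differentiation are higher after it, and Asb4 splits into lines near or below 1 CPM and lines far above.

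Per kilobase of exon in the GENCODE annotation of GRCm38, the mean level in differentiated libraries was highest for Cdkn1c (39.7 CPM per kb), followed by Mest (18.1), Peg10 (13.5), Grb10 (12.8) and Sgce (10.9). Plagl1 (5.65), Igf2 (2.63), Asb4 (1.87), H19 (0.472) and Peg3 (0.470) were lower on the same scale. In undifferentiated libraries Peg10 was highest at 53.6 CPM per kb, with Grb10 second (15.4 CPM per kb). Then came Asb4 (6.57), Sgce (5.93), Peg3 (2.39), Plagl1 (1.74), Mest (1.14), Cdkn1c (0.610), Igf2 (0.138) and H19 (0.00402). In differentiated libraries no 2 neighbours in this order differed by more than the larger of their SDs between lines. In undifferentiated libraries Peg10 over Grb10, Sgce over Peg3 and Cdkn1c over Igf2 did, by 1.60, 1.56 and 1.09 SD. The order rests on the exon length of all isoforms together and on an annotation of another build than the files. It also rests on means, which a few lines can carry. Undifferentiated Asb4 had a mean of 25.8 CPM and a median of 0.913 CPM, and differentiated Mest a mean of 71.2 CPM and a median of 17.3 CPM.

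Most of these genes differed between lines. A line was tested by its libraries of both stages, next to the stage term, and the call says only that the lines differ in this joint fit. A large difference at a single stage can carry it. The genes were chosen with earlier results of these data known, so their shares of calls, here and below, are descriptions. Of the 9 filtered genes 7 were called, against 29.1% of all tested genes: Asb4 (F = 20.7, edgeR adjusted p = 4.51e-07), Grb10 (F = 9.29, adjusted p = 8.88e-05), Peg3 (F = 8.83, adjusted p = 1.20e-04), Igf2 (F = 6.49, adjusted p = 7.75e-04), Cdkn1c (F = 4.67, adjusted p = 0.00445), Plagl1 (F = 3.25, adjusted p = 0.0237) and Mest (F = 2.73, adjusted p = 0.0468). Peg10 (adjusted p = 0.146) and Sgce (adjusted p = 0.335) were not called by edgeR, and Peg10 was called by DESeq2 (adjusted p = 0.0146). The Mest call was lost without the filter (adjusted p = 0.0528) and without C6 and D5 (adjusted p = 0.229), and the Plagl1 call without C6 and D5 (adjusted p = 0.0553) and without B5 (adjusted p = 0.0520). H19 was called in the fit without a filter, where 18.3% of genes were called, but all but 5 of its reads came from differentiated libraries. With 18 of 20 undifferentiated libraries at 0, those lines had at most 1 library with reads. The test therefore cannot decide whether lines differ in H19, and its values are not given.

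The spread between lines was wide also in comparison with other genes, in a set chosen with earlier results of these data known. In differentiated libraries the SD of log2 CPM between lines was 2.38 for Asb4, 1.99 for Grb10, 1.87 for Mest and 1.85 for Igf2, larger than in 99.5%, 98.6%, 98.2% and 98.0% of tested genes. In undifferentiated libraries it was 3.34 for Asb4 and 3.15 for Grb10, larger than in 99.9% of tested genes each, and 0.85 for Mest, larger than in 89.1%. Peg3 kept a similar spread at both stages, with an SD of 1.45 in differentiated and 1.33 in undifferentiated libraries.

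Whether a line keeps its level through differentiation was asked with the correlation of log2 CPM between the stages over the 20 lines. Of the 9 filtered genes 5 passed the permutation test with a positive correlation, against 23.7% of all tested genes, whose median r was 0.32. Grb10 and Asb4 are 2 of these 5 by their pooled r, but their undifferentiated levels fell into separate clusters. The split can carry these 2 calls, so no pooled r is given. For Grb10 r was 0.86 within the upper cluster of 15 lines, and its lower cluster (C3, C2, B3, C5 and B1) was too small for a value. For Asb4 r was 0.91 within the upper cluster of 9 lines and 0.21 within the lower cluster of 11. The other 3 were Peg3 (r = 0.77, rho = 0.76, permutation p = 6e-05, adjusted p = 0.00151), Igf2 (r = 0.65, rho = 0.64, permutation p = 0.00176, adjusted p = 0.0134) and Cdkn1c (r = 0.56, rho = 0.61, permutation p = 0.00967, adjusted p = 0.0426). Without the 2 lines farthest from the median r was 0.66 for Peg3, 0.71 for Igf2 and 0.50 for Cdkn1c. Without C6 and D5 the calls of Igf2 (adjusted p = 0.0746) and Cdkn1c (adjusted p = 0.106) were lost. Plagl1 (r = 0.49, rho = 0.49, permutation p = 0.0273, adjusted p = 0.0889), Peg10 (r = 0.29, rho = 0.35, permutation p = 0.206, adjusted p = 0.360), Mest (r = 0.20, rho = 0.17, permutation p = 0.391, adjusted p = 0.554) and Sgce (r = 0.16, rho = 0.20, permutation p = 0.497, adjusted p = 0.650) did not pass. D4, the highest undifferentiated line for Mest, was among the lower lines after differentiation, at 12.9 CPM.

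**Figure D3:**
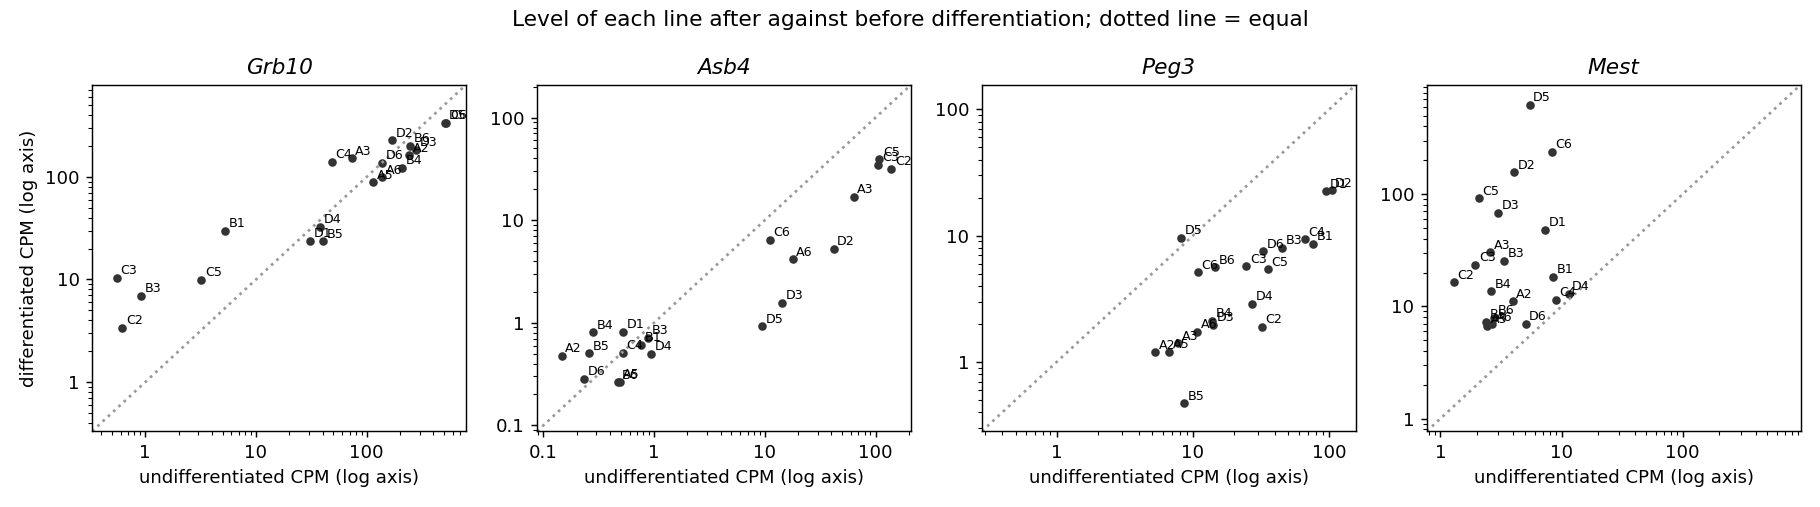
Level of each line after differentiation (vertical axis, CPM) against its level before it (horizontal axis, CPM), both on log axes, for Grb10, Asb4, Peg3 and Mest, with 1 labelled point per line and a dotted line of equal levels. Grb10 lies above the dotted line in its 5 lowest lines (C3, C2, B3, C5 and B1) and in C4 and A3, and near or below it in most others, Asb4 forms a low group and an upper group that lies below the line, and Mest shows no order from one stage to the other.

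Adipocyte markers did not reach the same level in all lines, and for 4 of the genes a negative slope against them was called. The calls of Igf2 and Plagl1 were lost without C6 and D5. The adipocyte score is the mean log2 CPM of 10 adipocyte markers (Adipoq, Plin1, Cd36, Fabp4, Cidec, Cfd, Pparg, Cebpa, Lpl and Retn). In differentiated libraries it was 4.42 in C6, 7.44 in D5 and between 8.74 and 9.98 in the other 18 lines. Against the score of the same library, the level in differentiated libraries had a negative slope in Mest (-1.48 on the log2 scale per unit of score, SE 0.29, edgeR adjusted p = 5.20e-04), Igf2 (-1.02, SE 0.26, adjusted p = 0.00434) and Plagl1 (-0.61, SE 0.16, adjusted p = 0.00426). These are 3 of 9 genes tested, against 20.2% of 13248 genes with a negative call. H19 had a slope of -1.10 (SE 0.29, edgeR adjusted p = 0.00626) in the fit without a filter, where 14.3% of genes had a negative call. C6 and D5, the lines with the lowest scores, were the 2 highest lines for each of these 4 genes. The Mest slope was -0.83 without D5 (SE 0.22, edgeR adjusted p = 0.00629), -2.27 without C6 (SE 0.33, adjusted p = 6.07e-05) and -2.32 without both (SE 0.71, adjusted p = 0.0186), so its call held but its size depended on these lines. Igf2 was called without D5 (-0.52, edgeR adjusted p = 0.0345) and not without both (-0.37, adjusted p = 0.732). Plagl1 was called without C6 (-1.02, edgeR adjusted p = 0.00714) and not without both (-0.83, adjusted p = 0.220). Its slope was not smaller without these lines, and the lines left span a narrow range of scores. H19 was not fitted without them.

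The other genes did not pass in differentiated libraries with all lines: Peg10 (slope -0.37, adjusted p = 0.110), Grb10 (-0.41, adjusted p = 0.162), Sgce (-0.10, adjusted p = 0.214), Asb4 (-1.38, adjusted p = 0.334), Cdkn1c (-0.09, adjusted p = 0.669) and Peg3 (-0.03, adjusted p = 0.948). Peg10 was called without C6 (slope -1.02, edgeR adjusted p = 0.0269) and without C6 and D5 (-1.62, adjusted p = 0.0139), and by DESeq2 (adjusted p = 0.0402), and Asb4 was called by DESeq2 (-1.49, adjusted p = 7.39e-04). Set against the later score of its line, the undifferentiated level gave no call for any of the 7 genes tested (adjusted p from 0.327 for Grb10 to 0.990 for Peg10), against 7.74% of 12409 genes called in either direction. Asb4, Igf2 and H19 did not pass the filter in that fit. Without the filter H19 passed the test there (edgeR adjusted p = 0.00538) on 5 reads, 4 of them in C6, the line with the lowest score, and Asb4 and Igf2 did not (adjusted p = 0.725 and 0.764). The score and the levels come from the same differentiated libraries. The summed level of 6 preadipocyte and mesenchymal markers (Pdgfra, Pdgfrb, Ly6a, Cd34, Dlk1 and Dpp4; none at 0 in all lines) ran from 117 to 2576 CPM in differentiated and from 276 to 1087 CPM in undifferentiated libraries, and the part of unconverted cells in these slopes was not tested.

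**Figure D4:**
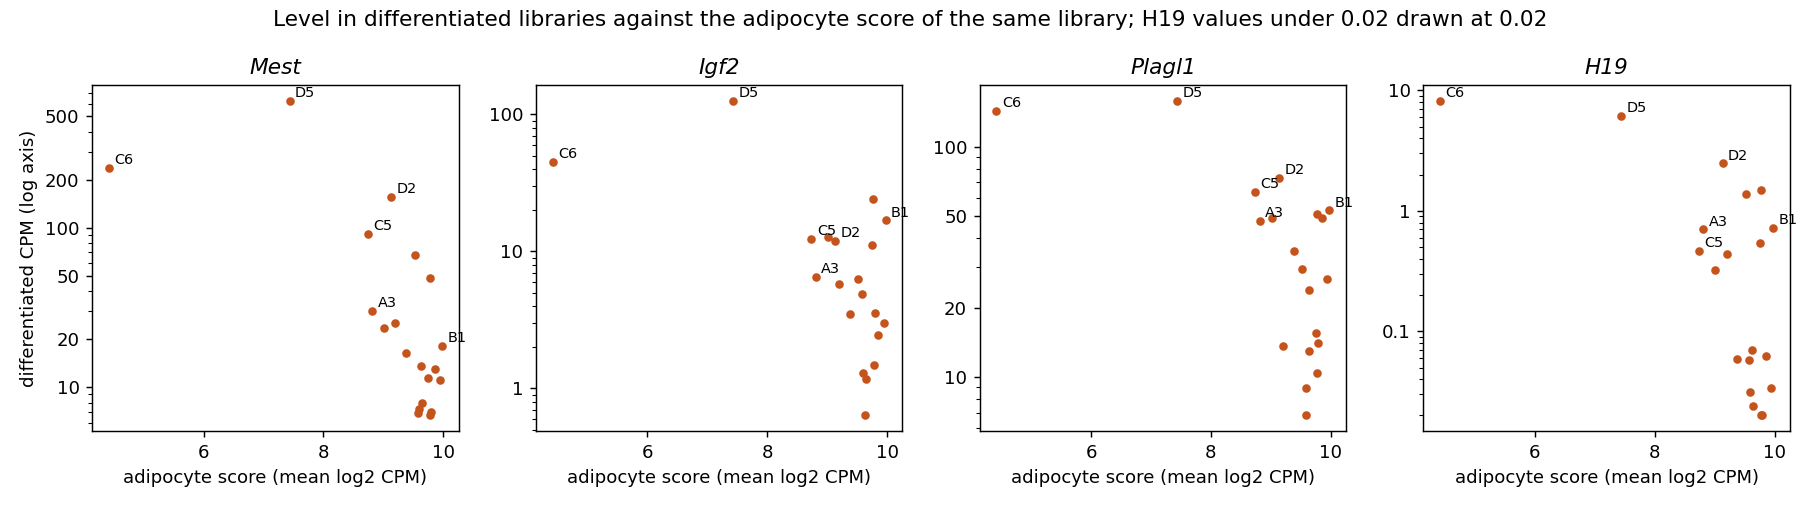
Level in the 20 differentiated libraries (CPM, log axis) against the adipocyte score of the same library (mean log2 CPM of 10 markers) for Mest, Igf2, Plagl1 and H19, with 1 point per line and some lines labelled. C6 at 4.42 and D5 at 7.44 lie apart on the left and hold the highest levels, and the other 18 lines lie between 8.74 and 9.98. Within these lines the negative slope of Mest was still called, and those of Igf2 and Plagl1 were not.

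Levels of neighbouring genes and of Plagl1 and its reported targets were compared over the lines within each stage, in 16 relations. Pairs of other genes were not tested beside them, so a call does not set a pair apart from other pairs. After differentiation H19 and Igf2 were high in the same lines (r = 0.87, rho = 0.83, permutation p = 1e-05, the smallest that 100000 permutations can give, adjusted p = 1.60e-04), and r was 0.79 without the 2 lines farthest from the median. Plagl1 went with H19 (r = 0.78, rho = 0.80, permutation p = 7e-05, adjusted p = 4.00e-04) and with Igf2 (r = 0.76, rho = 0.78, permutation p = 1e-04, adjusted p = 4.00e-04), with r of 0.72 and 0.65 without the 2 farthest lines. These 3 relations remained under the threshold without C6 and D5, with r of 0.79, 0.64 and 0.60. Plagl1 did not go with Cdkn1c (r = -0.00043, rho = 0.02, permutation p = 0.999), nor Igf2 with Cdkn1c (r = 0.19, rho = 0.24, permutation p = 0.416, adjusted p = 0.512). On chromosome 6, Peg10 went with Asb4 (r = 0.78, rho = 0.82, permutation p = 1e-04, adjusted p = 4.00e-04) and with Sgce (r = 0.64, rho = 0.65, permutation p = 0.00276, adjusted p = 0.00736), with r of 0.71 and 0.64 without the 2 farthest lines. Sgce and Asb4 gave r = 0.41 (rho = 0.57, permutation p = 0.0737, adjusted p = 0.131).

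Before differentiation these relations were different in part. Igf2 and Cdkn1c correlated (r = 0.60, rho = 0.56, permutation p = 0.00577, adjusted p = 0.0132), and this fell short without C6 and D5 (r = 0.52, adjusted p = 0.0592). Both genes were low at this stage, with 377 and 591 reads over the 20 libraries, so this r is loosely fixed. Peg10 and Sgce gave r = 0.08 (rho = -0.04, permutation p = 0.738, adjusted p = 0.787), Plagl1 and Igf2 r = 0.11 (rho = 0.21, permutation p = 0.639, adjusted p = 0.731), and Plagl1 and Cdkn1c r = 0.47 (rho = 0.53, permutation p = 0.0374, adjusted p = 0.0748). With Asb4 no pooled r is given because its lines fell into separate clusters: Peg10 and Asb4 gave r = 0.57 within the lower cluster of 11 lines and 0.60 within the upper cluster of 9, and Sgce and Asb4 gave 0.61 and -0.38. H19 had too few reads before differentiation for a relation. The difference in correlation between the stages was not tested.

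**Figure D5:**
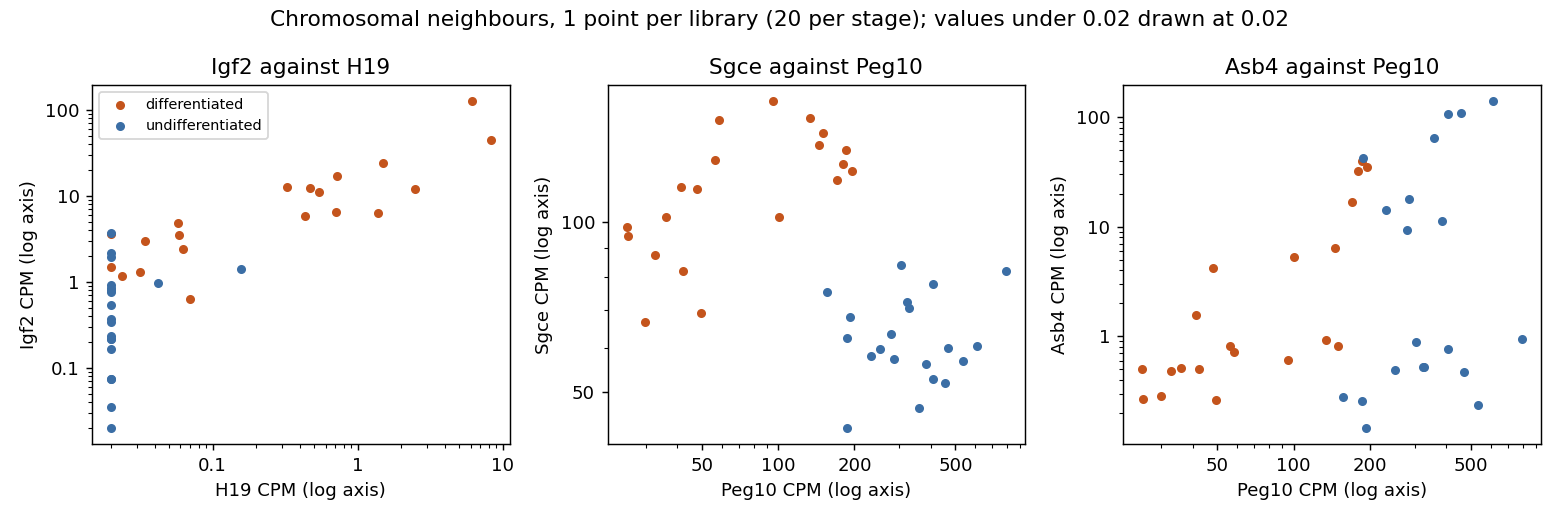
Level of Igf2 against H19, of Sgce against Peg10 and of Asb4 against Peg10, in CPM on log axes, with 1 point per library, differentiated in orange and undifferentiated in blue, 20 of each. Orange points rise together in all 3 panels, and blue points lie at the lower limit for H19, without order for Sgce against Peg10, and in an upper and a lower band for Asb4 against Peg10.

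The genes most like each of the 10 were found by Pearson's r of stage-centred log2 CPM over the 40 libraries among 13272 genes that averaged 1 CPM or more, as a description without a test. For Mest they were Fzd2 (r = 0.89), Palm3 (0.87) and Tpm1 (0.86), for H19 Mfap4 (0.85), Mest (0.84) and Fzd2 (0.83), and for Plagl1 Arhgef25 (0.83), Fzd2 (0.83) and Disp1 (0.83). Mest was also the gene at rank 10 for Igf2 (0.75) and rank 19 for Plagl1 (0.78). The partners called in the differentiated relations above stood further down in this order, which joins both stages. Igf2 stood at rank 239 and Plagl1 at rank 292 for H19. Igf2 stood at rank 1404 for Plagl1, and Plagl1 at rank 795 for Igf2. For Peg10, Asb4 stood at rank 1685 and Sgce at rank 1749. In this order over both stages, many other genes were more like each of these genes than its partner was. No such order was made for differentiated libraries alone. The most similar genes were Slc22a17 (0.82), Grb14 (0.80) and Ogdhl (0.79) for Igf2, Lrfn3 (0.85), Sepp1 (0.84) and Hoxc8 (0.82) for Grb10, and Tbx20 (0.87), Rpl39l (0.86) and Wnt10b (0.83) for Asb4. They were Tmsb10 (0.87), Flnc (0.85) and Rnf20 (0.83) for Peg10, Itsn2 (0.77), Prpf39 (0.75) and Hsf4 (0.74) for Peg3, and Fkbp9 (0.80), Fam110b (0.78) and Nucb1 (0.75) for Sgce. Cdkn1c had the weakest match, with Mkx (0.61), Kctd1 (0.59) and Gtf3c3 (0.59). For Grb10 and Asb4 the values of r join the separate clusters of their undifferentiated levels, and the split can carry them.

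The Dlk1-Meg3 cluster, another imprinted region, gives a comparison. Dlk1, which encodes a membrane protein of preadipocytes, ran from 6.45 through 97.7 to 822 CPM in differentiated lines, against 2.62, 63.1 and 340 CPM in undifferentiated lines, with a log2 fold change of 1.40 (SE 0.59, edgeR adjusted p = 0.0272, higher in 15 of 20 lines). The noncoding RNAs Meg3 and Rian were each on in 10 lines at both stages, with SDs of log2 CPM between lines of 3.66 and 3.25 in differentiated and 4.54 and 4.52 in undifferentiated libraries, which is wider than Asb4 and Grb10 at the same stage. Rian stood at rank 12 of the genes most like Igf2 (r = 0.74).

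A list of 55 other imprinted genes was read beside the 10. Of these, 53 were in the files and 33 passed the filter, of which 10 were higher and 15 lower in differentiated libraries by edgeR's test, while 8 missed the threshold (43.6% of all tested genes were higher and 38.4% lower). Their median log2 fold change was -0.21 against 0.06 over all tested genes. The called genes with the largest changes were Htr2a, a serotonin receptor (-4.31, SE 0.51, 1.06 ± 1.41 CPM in differentiated and 21.1 ± 12.1 CPM in undifferentiated libraries), Cobl, an actin nucleator (-3.91, SE 0.41), Peg12 (-2.71, SE 0.37), the amino acid transporter Slc38a4 (-2.65, SE 0.56), the coatomer subunit Copg2 (2.08, SE 0.12) and the paraoxonase Pon3, which lies on chromosome 6 near Sgce and Asb4 (2.01, SE 0.20). Their highest adjusted p was 4.80e-05, for Slc38a4. Between lines 16 of the 33 were called, against 29.1% of all tested genes, and the widest of the better expressed ones were Ndn (SD of log2 CPM 2.41), Slc38a4 (1.76) and Htr2a (1.41). Slc38a4 averaged 14.6 ± 17.4 CPM in differentiated and 91.5 ± 113 CPM in undifferentiated libraries (SD, n = 20 each).

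Libraries held 27058810 to 42907513 counts in differentiated and 19461042 to 27971548 in undifferentiated samples, so a count of 0 allows at most 0.119 CPM in differentiated and 0.147 CPM in undifferentiated libraries, for counting error only. The files of the stages were counted in different ways: reads of low quality and unaligned reads were tallied at 0 in all differentiated libraries and at 1.82% to 2.77% and 0.526% to 2.05% of reads in undifferentiated ones. The stage and the counting therefore cannot be told apart for any stage difference given here. The 10 adipocyte markers summed to 891 to 12533 CPM in differentiated and 27.0 to 470 CPM in undifferentiated libraries. Markers of endothelial, immune and skeletal muscle cells summed to at most 32.1, 9.13 and 17.8 CPM in differentiated and 7.59, 5.62 and 22.4 CPM in undifferentiated libraries, with Cd3e at 0 in all undifferentiated libraries and Emr1 at 0 in all libraries. Schwann and neural markers summed to 3.84 to 42.0 CPM in differentiated and 15.8 to 88.4 CPM in undifferentiated libraries.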

How the data were processed

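Poly(A)-selected RNA was sequenced as 100 bp pairs from a strand-marking kit, per the labels' protocols. STAR alignment to build mm9 and HTSeq counting are named in the submitters' processing notes. The sources used here give neither tool versions nor the annotation nor whether counting used the strand. The values deposited by the authors are raw counts, 1 whole number per symbol and library. Of 29912 shared symbols, 125 that differ only in letter case were left out. Rows that name no gene stayed out of library sizes and tests. In differentiated and undifferentiated libraries they held 4.35% to 5.27% and 6.53% to 7.89% of reads outside genes, 3.54% to 3.77% and 3.18% to 3.37% ambiguous reads, and 11.0% to 14.8% and 15.7% to 17.7% reads aligned to several places.

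The tests ran in edgeR 4.0.16 under R 4.3.3 (filterByExpr with a minimum count of 10, TMM, glmQLFit and glmQLFTest, Benjamini-Hochberg adjustment), with limma 3.58.1 (voom) and DESeq2 1.42.0 as alternatives. Standard errors of fold changes are the absolute log2 fold change divided by the square root of F. Stage was fitted without a block, lines next to stage, and the adipocyte score as a covariate within a stage. The labels name the same cell line in both stages, which pairs the libraries. The line block moved Mest and Asb4 and turned the sign of Grb10, and these values are given beside them. Correlations used log2 CPM with a prior count of 2 and 100000 two-sided permutations of the lines, in Python 3.11.15 with numpy 2.4.6 and scipy 1.17.1. Pooled correlations between stages and between pairs were not printed where neighbouring values were at least 2 log2 units apart with at least 2 lines on each side. The search for the most similar genes did not use this rule. All 10 genes are named, other imprinted genes by size of change or of spread at a mean of at least 5 CPM. Scripts were tested on simulated counts. The genes, lists and tests were chosen with earlier results of these data known. Promoters are RefSeq's, and exon lengths and overlaps come from GENCODE M21 (GRCm38), so no gene coordinates in the files' build are given.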

Additional observations from a re-analysis of the deposited data

How the results depend on the processing

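With the line as a replicate block, that is with the libraries of a line paired, 12057 genes were called for stage, against 11541 without it, and among the 9 filtered genes no call changed. Leaving out each line in turn, chosen after seeing the data, gave 11303 to 11533 genes for stage, 3446 to 4062 for lines (4093 with all) and 4767 to 6327 for the score in differentiated libraries (5964 with all). The number of genes called for lines was 7007 with DESeq2. For the score in undifferentiated libraries 960 genes were called, against 114 without C6 and 4 without C6 and D5, so that comparison rests on these lines; none of the 7 genes tested was called under any alternative. No direction of a called gene or relation was reversed. The stage calls of Peg10, Sgce, Igf2, Peg3, Mest, Cdkn1c and Plagl1 held in all 26 alternatives, while that of Asb4 held in 6 of 20 fits without 1 line (adjusted p from 0.0412 to 0.0721). These stage fits without 1 line did not pair the libraries of a line. With the line block and all lines the Asb4 call held (edgeR adjusted p = 0.00145). The line call of Mest held in 7 of 20 fits without 1 line (adjusted p from 0.0287 to 0.109), and that of Plagl1 in 19. Peg10 was called for the score without C6 alone among fits without 1 line. The cause of these changes was not tested. Depth limits H19 and Igf2 before differentiation, with 5 and 377 reads over 20 libraries.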
